A study of Mus musculus with 37 samples.

Results

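Oxidative phosphorylation (OXPHOS) couples the oxidation of NADH and succinate in the inner mitochondrial membrane to the synthesis of ATP. Complexes I to IV pass electrons to oxygen and pump protons, except complex II, which does not pump, and complex V is the ATP synthase that uses the proton gradient. A small core of subunits is encoded by mitochondrial DNA, whereas the other subunits, all of complex II and the assembly factors are encoded in the nucleus. Liver that regrows after partial hepatectomy needs ATP for cell growth while it keeps its metabolic functions.

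The genes were taken by name from the protein-coding rows of the count table, as symbols of the mt-Nd, mt-Co, mt-Atp, mt-Cytb, Nduf, Sdh, Uqcr, Cox4 to Cox8 and Atp5 families. Of 55487 rows, 21936 were protein-coding and 109 matched, and 107 were kept because Cox7b2 and Cox8c had no count in any library. The 107 rows comprised 13 mitochondrial and 94 nuclear genes. The 13 mitochondrial genes encode 7 subunits of complex I, 1 of complex III, 3 of complex IV and 2 of complex V. Among the 94 nuclear rows, 37 were subunits of complex I, 4 of complex II, 8 of complex III, 11 of complex IV and 18 of complex V. A further 9 rows were assembly or supercomplex factors (Ndufaf1 to Ndufaf8 and Cox7a2l). The last 7 were isoforms of restricted tissues or conditions (Cox4i2, Cox6a2, Cox6b2, Cox7a1, Cox8b and Ndufa4l2) and Cox5b-ps, a row with a pseudogene name. Of the 107, 105 passed the filter on low counts and were tested, and Cox4i2, with 143 counts in all libraries together, and a second Atp5o row, with 7, were not.

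The study compared livers of NOX4-/- mice (KO) with those of WT mice after partial hepatectomy or a sham operation, in 37 libraries. Nox4 encodes an NADPH oxidase that makes hydrogen peroxide. KO livers were taken at 6 h (3 libraries), 24 h (4), 48 h (4) and 7 d (3) after hepatectomy and after sham operations (5, taken at 6, 24, 48, 48 and 72 h). WT livers were taken at 6 h (3), 24 h (3), 48 h (4) and 7 d (3) and after sham operations (5, taken at 6, 24, 48 and 48 h and 7 d). Both sexes were used, all 6 h hepatectomy livers were male, and sex was a term in each test. Strain, age and the way the deletion was made are not given in the sources used here, nor whether each library came from its own mouse, so p-values measure the spread between libraries. The mRNA libraries came from pieces of frozen liver, so fewer cells of a type and less RNA per cell cannot be told apart.

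Libraries held 26232544 to 48827025 counts, and 15564 genes were tested. The hepatocyte genes Alb and Ttr were abundant in every library, at 24283 to 113212 and 2056 to 10125 CPM (counts relative to the library total, scaled by the TMM method). Nox4 itself fell by 2.66 on the log2 scale in KO sham livers against WT sham livers (SE 0.53, edgeR adjusted p = 0.0114), and its values were apart within each sex. They were 2.40 to 4.98 CPM in male KO against 18.7 and 19.1 CPM in male WT sham livers, and 0.15 and 0.22 CPM in female KO against 1.29 to 3.36 CPM in female WT sham livers. The counts cover the whole gene, so counts from exons outside the deleted part would not check the deletion. WT 24 h replicate 3 stood apart in skeletal muscle transcripts, with a summed level of 1471 CPM over 8 markers, and WT 48 h replicate 3 followed with 508 CPM, against a median of 0.584 CPM. Values without both libraries are given beside the calls that they end.

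Counts of some mitochondrial genes were shared with nearly identical rows on chromosome 1. These are 6 pseudogenes in 1 nuclear copy of mitochondrial DNA on the minus strand between positions 24612407 and 24616197 of chromosome 1 (GRCm38), which together held 1.48% to 4.09% of the counts of a library. The rows paired with mt-Co3 (Gm28437), mt-Co2 (Gm28661) and mt-Atp6 (Gm10925) matched those transcripts without a mismatch over 783, 681 and 678 bases, and the row paired with mt-Nd4l (Gm10222) did so over 294 bases. They took 96.5% of the counts of the mt-Co3 pair, 94.5% for mt-Co2 and 96.1% for mt-Atp6, 40.3% for mt-Nd4l, 88.9% for mt-Nd3 and 11.7% for mt-Co1. The rows paired with mt-Co1 (Gm29216) and mt-Nd3 (Gm28438) each differ from the mitochondrial transcript by 1 base in the aligned part. These stretches are printed to show how little separates the copies, with the differing base in capitals; they are GENCODE transcripts (release M21, GRCm38), and positions are counted from 1 at the 5′ end of the mitochondrial transcript.
mt-Co1, bases 1063 to 1122: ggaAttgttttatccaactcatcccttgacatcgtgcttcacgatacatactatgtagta
Gm29216, the same stretch, A1066T: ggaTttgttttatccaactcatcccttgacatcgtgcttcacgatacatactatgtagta
mt-Nd3, bases 1 to 60: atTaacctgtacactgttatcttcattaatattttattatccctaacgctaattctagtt
Gm28438, the same stretch, T3C: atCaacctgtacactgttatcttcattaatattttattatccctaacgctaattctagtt
The single rows of mt-Co2, mt-Co3, mt-Atp6, mt-Nd3 and mt-Nd4l are therefore uncertain, and sums of pairs are given beside the results on single genes that turn on them and beside the counts of genes above 0. The share in the chromosome 1 row also differed between libraries, most of all for mt-Nd4l, where it was 34.5% to 54.5% in KO sham livers and 5.73% to 29.3% in WT sham livers. The annotated transcripts of mt-Atp8 and mt-Atp6, and of mt-Nd4l and mt-Nd4, overlap as well, so their counts cannot be fully separated.

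**Figure D1:**
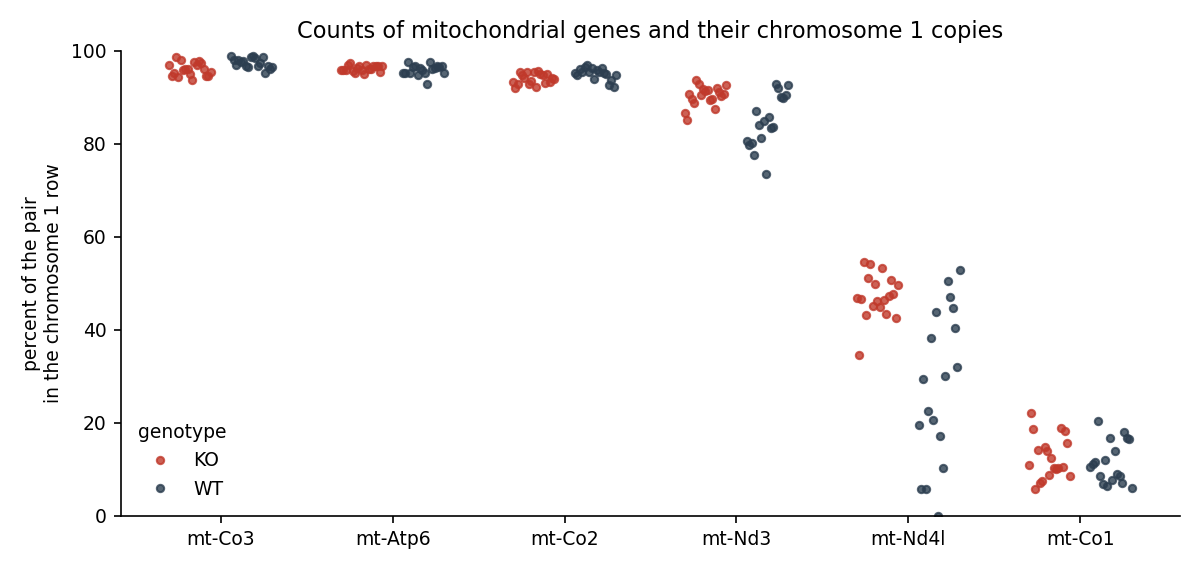
Percent of the summed counts of each mitochondrial gene and its chromosome 1 row that stood in the chromosome 1 row; each point is 1 library, KO left and WT right. The pair of mt-Co3 stood at 93.8% to 98.9% in the chromosome 1 row in all 37 libraries, whereas mt-Nd4l ranged from 0% to 54.5%.

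The 13 mitochondrial genes together took far more counts than the 94 nuclear genes. Their share of the counts of a library was 5.15% ± 0.90 in KO sham livers and 3.95% ± 0.66 in WT sham livers (SD, n = 5 each). At 6 h it was 6.12% ± 0.37 in KO and 4.82% ± 0.44 in WT livers (SD, n = 3 each), and at 24 h 5.62% ± 1.04 in KO (n = 4) and 4.72% ± 2.51 in WT livers (n = 3). It was 5.03% ± 0.85 in KO and 4.63% ± 1.17 in WT livers at 48 h (n = 4 each), and 4.89% ± 0.28 in KO and 4.55% ± 1.42 in WT livers at 7 d (n = 3 each). In every one of the 5 stages the KO mean was the higher, but KO and WT values were apart only at 6 h, with 5.81% to 6.53% in KO and 4.32% to 5.11% in WT livers. The WT 24 h group was split, with 3.02%, 3.54% and 7.60%, the last in the library with the most muscle transcripts.

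The nuclear genes kept to a narrower band. They took 1.10% ± 0.18 of the counts in KO sham livers and 1.11% ± 0.08 in WT sham livers, and the group means after hepatectomy ran from 0.929% in WT 6 h livers to 1.25% in WT 7 d livers. The log2 ratio of mitochondrial to nuclear counts was highest at 6 h, at 2.53 ± 0.23 in KO and 2.38 ± 0.26 in WT livers, against 2.22 ± 0.33 in KO sham and 1.83 ± 0.32 in WT sham livers. With the chromosome 1 rows added to the mitochondrial genes, the share was 8.07% ± 1.53 in KO sham and 5.72% ± 0.80 in WT sham livers, and 7.44% ± 2.56 in WT 7 d livers.

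**Figure D2:**
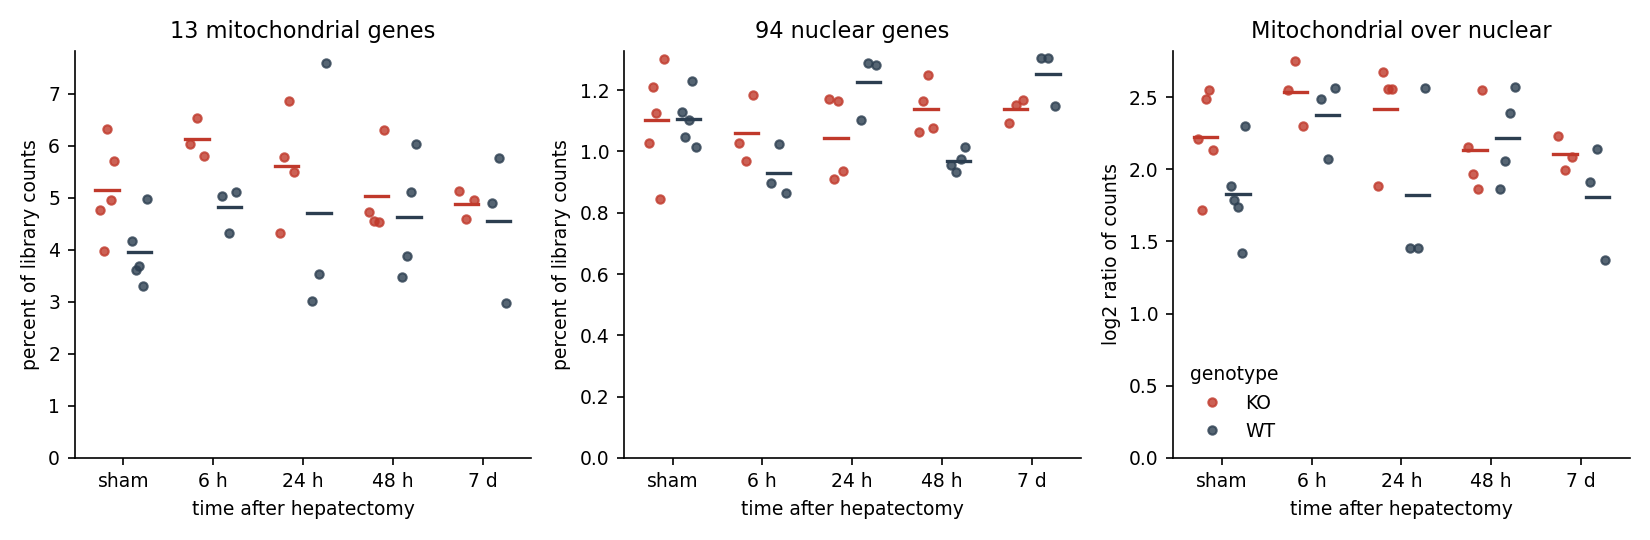
Percent of library counts in the 13 mitochondrial genes (left) and the 94 nuclear genes (centre), and log2 of their ratio (right), by time after hepatectomy; each point is 1 library, bars are group means, KO left and WT right. The mitochondrial share was 6.12% in KO and 4.82% in WT livers at 6 h, whereas the nuclear group means stayed between 0.929% and 1.25%.

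Of the 13 mitochondrial genes 12 also stood above every nuclear gene in level per kilobase of annotated exon. The exons of all transcripts of a gene were merged for this length. A merged length can exceed that of any 1 transcript, so levels of nuclear genes with several transcripts may be too low. Over all 37 libraries mt-Co1, the catalytic core of complex IV, averaged 13348 CPM per kb, mt-Cytb of complex III 7219 and mt-Nd1 of complex I 6074 CPM per kb. The lowest mitochondrial level, 236 CPM per kb for mt-Nd3, lay below 4 nuclear genes, and its chromosome 1 row held 88.9% of the counts of the pair. Among nuclear genes Cox6a1 of complex IV stood highest, at 347 CPM per kb, and Atp5a1, the alpha subunit of the ATP synthase, reached 247. Median levels were 41.3 CPM per kb for the 37 nuclear subunits of complex I, 74.3 for complex II, 125 for complex III, 129 for complex IV and 67.8 for complex V. By CPM the most abundant nuclear gene was Ndufb9 in complex I (176), Sdha in complex II (288), Uqcrq in complex III (298), Cox4i1 in complex IV (361) and Atp5b, the catalytic beta subunit, in complex V (939.8). Assembly factors had a median of 4.83 and the restricted isoforms of 1.58 CPM per kb. Within complex I, nuclear levels ran from 6.45 CPM per kb for Ndufs1, the largest core subunit, to 171 for Ndufb9, an accessory subunit. Their merged exon lengths were 8086 and 1031 bases. The liver forms of the isoform pairs were the abundant ones: Cox4i1 had 233 and Cox4i2 0.14 CPM per kb, Cox6a1 347 and Cox6a2 1.58, Cox7a2 128 and Cox7a1 2.36, Cox8a 284 and Cox8b 1.88, and Ndufa4 135 and Ndufa4l2 1.11.

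Nuclear subunits varied little between groups. For the 77 tested nuclear subunits of complexes I to V, the highest group mean was 1.27 to 2.14 times the lowest, with a median of 1.57, and the fold was under 1.5 for 28 and at least 2 for 2 of them. The widest was Sdhb, at 2.14. The median spread of log2 CPM within a group was 0.31 for these subunits and 0.44 for the 13 mitochondrial genes, against 0.37 for the 3691 tested genes at the same level or above (mean of at least 24.5 CPM). The median range of the 10 group means was 0.66 log2 units for the nuclear subunits, 1.27 for the mitochondrial genes and 1.00 for those 3691 genes.

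At 6 h after hepatectomy mitochondrial transcripts stood higher than in sham livers in both genotypes, with 1 call. In WT 6 h livers all 13 mitochondrial genes had a log2 change above 0 (median 0.65, range 0.23 to 1.48), beside 0.16 for the 92 tested nuclear genes and 0.02 for all genes tested. Only mt-Nd1, a core subunit of complex I, passed the test, at 7698, 6575 and 9081 CPM in WT 6 h livers against 3607, 3623, 3047, 3469 and 6355 CPM in WT sham livers. The ranges did not overlap, and the sham value nearest to them, 6355 CPM, is that of the sham liver taken at 6 h. The log2 change was 0.89 (SE 0.28, edgeR quasi-likelihood test, adjusted p = 0.0482), and 4.16% of all tested genes were called higher in this comparison. The mt-Nd1 call was lost in 30 of the 37 fits that left out 1 library (adjusted p up to 0.24) and in males alone (0.62, adjusted p = 0.544), and the 9 alternative settings gave adjusted p from 0.0198 to 0.544. mt-Co1 was not called, at 26596, 31366 and 29821 CPM in WT 6 h livers (log2 change 0.54, SE 0.24, adjusted p = 0.16). The 6 h sham liver, at 28259.8 CPM, lay inside that range, and the other WT sham livers had 14082 to 17168 CPM. All 6 h libraries had low TMM scaling factors, from 0.66 to 0.85, and so did the WT 6 h sham liver, at 0.74. The part of the scaling in these values was not tested. The share of raw counts in the 6 h sham liver, 4.98%, lay inside the WT 6 h range of 4.32% to 5.11%.

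In KO 6 h livers no member was called by edgeR, while 6.62% of all tested genes were. An unadjusted p under 0.05 was found for 5 of the 105 tested members, beside 3404 of all 15564 genes. DESeq2 called 0 members and 1595 genes. The median log2 change was 0.30 for the mitochondrial genes, 12 of 13 above 0 (13 of 13 with the chromosome 1 rows added), and 0.13 for the nuclear genes, 70 of 92 above 0. In males alone the medians were 0.50 and 0.23, and with the compared groups alone 0.53 and 0.26. mt-Nd1 had 8584, 9513 and 9965 CPM in KO 6 h livers and 5239, 4632, 7208, 4002 and 7397 CPM in KO sham livers, again without overlap (log2 change 0.66, SE 0.28, adjusted p = 0.155). Both genotypes' 6 h changes are measured against sham groups of mixed times. The genotype by hepatectomy interaction at 6 h called 0% of all genes and no member by edgeR. Of the members 2 had an unadjusted p under 0.05, beside 715 of all genes, and DESeq2 called 0 members and 8 genes. Of 18 biogenesis regulators 1 was called higher and 2 lower in WT 6 h livers, where 3.7% of all genes were lower, and none higher and 1 lower in KO 6 h livers. Ppargc1a, a coactivator of mitochondrial gene programmes, rose in WT 6 h livers (log2 change 1.71, SE 0.55, adjusted p = 0.0491) and had a change of 1.03 in KO 6 h livers (SE 0.52, adjusted p = 0.244). The genes called lower were Ppargc1b (-2.99, SE 0.64, adjusted p = 0.00535) and Polg2 (-2.10, SE 0.49, adjusted p = 0.00967) in WT and Twnk (-1.20, SE 0.29, adjusted p = 0.0118) in KO 6 h livers.

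**Figure D3:**
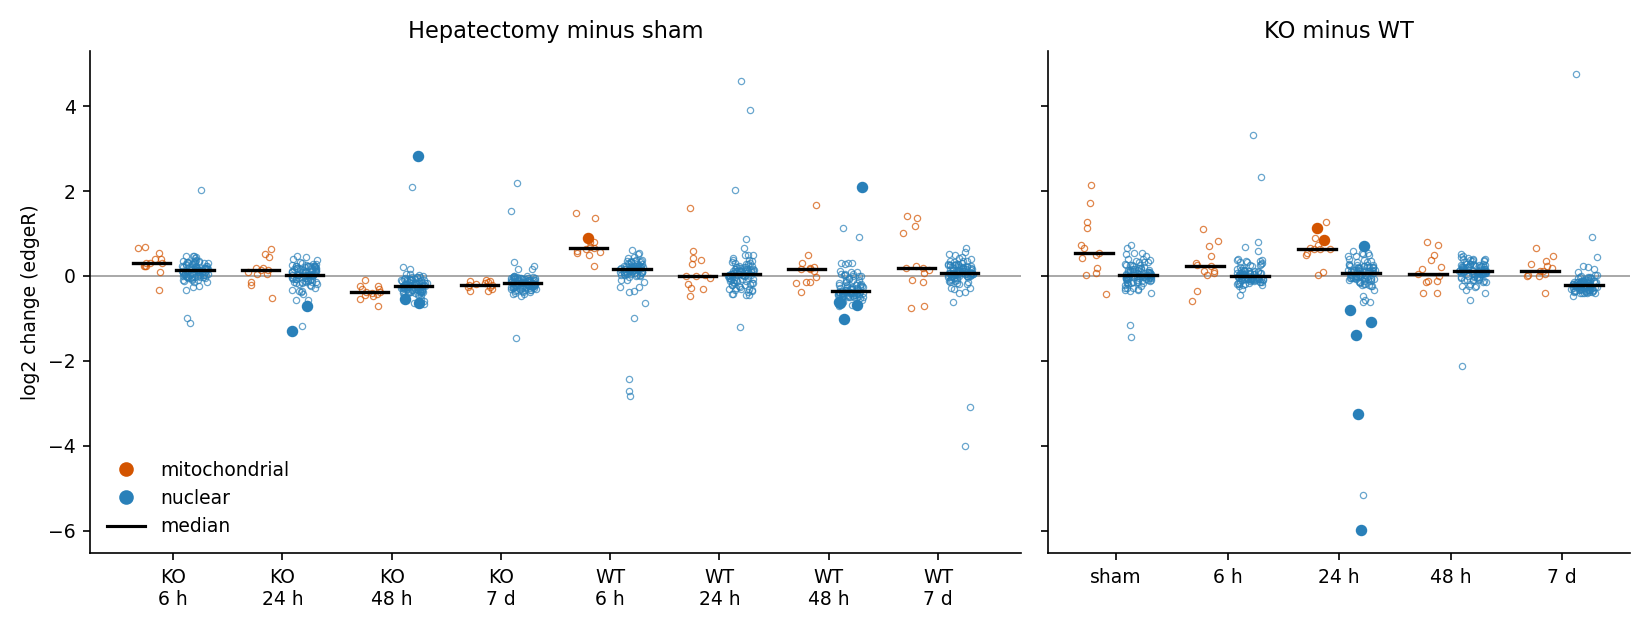
Log2 changes (edgeR) of the tested mitochondrial (left strip) and nuclear (right strip) genes in 8 comparisons with sham livers and in 5 comparisons of KO with WT; filled points passed an adjusted p of 0.05 and black bars are medians. The mitochondrial median was 0.65 in WT 6 h livers and 0.64 for KO against WT at 24 h, and the nuclear median lay lowest, at -0.34, in WT 48 h livers.

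At 24 h after hepatectomy in KO livers, 2 nuclear members were called lower and none higher by edgeR, in a comparison where 12% of all tested genes were lower and 15.9% higher. Ndufaf1, an assembly factor of the complex I membrane arm, had 13.2, 10.1, 10.4 and 11 CPM in KO 24 h livers and 19.0, 17.5, 19.6, 16.2 and 20.1 CPM in KO sham livers. The groups did not overlap, and the log2 change was -0.71 (SE 0.14, edgeR adjusted p = 0.000516). It kept the call in each of 37 fits without 1 library (adjusted p up to 0.00411) and in 8 of 9 other settings, missing it with the compared groups alone (-0.79, adjusted p = 0.0508; 3.96e-06 to 0.0508 over the settings). Ndufa4l2, a relative of Ndufa4 that hypoxia is known to induce, had 1.301, 0.207, 0.355 and 0.293 CPM in KO 24 h livers against 0.94, 2.15, 1.45, 1.29 and 0.834 CPM in KO sham livers. The first KO 24 h library lay inside the KO sham range and the other 3 below it, with a log2 change of -1.30 (SE 0.44, adjusted p = 0.0265; 0.0137 to 0.0781 over the other settings). The call ended without KO sham replicate 2 (-1.04, adjusted p = 0.0893) or without KO 24 h replicate 2 (-1.0, 0.114), 3 (-1.14, 0.0939) or 4 (-1.10, 0.103). DESeq2, which called 4884 genes in this comparison, called both and also mt-Co1 and mt-Nd1, which were higher. Without both muscle libraries the edgeR calls were 5, with Cox7a1 and Ndufaf6 lower and mt-Nd1 higher besides. Markers of some other cell types were lower in the same comparison, 9 of 10 Kupffer cell genes (median -1.56), 5 of 8 sinusoidal endothelial genes (-1.32, with 1 higher), 5 of 7 T and NK cell genes (-2.36) and 2 of 4 B cell genes (-1.06). Not every list fell. Summed stellate cell markers were at 119 to 234 CPM in KO 24 h and 116 to 205 CPM in KO sham livers. Cholangiocyte markers were at 18.9 to 157 against 14.7 to 45.6 CPM. Neutrophil markers were at 2.64 to 12.2 against 2.24 to 7.54 CPM, and adipocyte markers at 2.60 to 281 against 0.573 to 22.1 CPM. The part of cell makeup in the lower members was not tested.

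In WT 24 h livers no member passed the edgeR test, with 0.925% of all genes called. An unadjusted p under 0.05 was found for 10 of the 105 tested members, beside 2407 of all 15564 genes. DESeq2 called 1 member and 483 genes. Ndufaf1 had 14.7, 13 and 11.7 CPM in WT 24 h livers and 13.5 to 17.9 CPM in WT sham livers (log2 change -0.34, SE 0.15, adjusted p = 0.272). Its response did not pass the test of the difference between genotypes (interaction -0.37, SE 0.20, adjusted p = 0.241).

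At 48 h most nuclear genes had changes below 0, and few were called by edgeR. In WT 48 h livers 75 of 92 nuclear genes had a log2 change below 0, with a median of -0.34 beside 0.07 for all genes tested, and 4 of the 92 were called lower, a share near the 3.62% of all genes called lower. An unadjusted p under 0.05 was found for 26 members, 24 of them nuclear genes that were lower, beside 3509 of all 15564 genes. DESeq2 called 10 nuclear members lower, 1 nuclear and 1 mitochondrial member higher, and 1799 genes in all. The medians by complex were -0.55 for complex II, -0.38 for complex I, -0.35 for complex III, -0.34 for complex IV and -0.39 for complex V. The mitochondrial genes had a median of 0.16, with 8 of 13 above 0 as single rows and 10 of 13 with the chromosome 1 rows added. That median was 0.01 without both muscle libraries. In males alone it was -0.19 and the nuclear median -0.16, and no member was called.

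Complex II, succinate dehydrogenase, also belongs to the tricarboxylic acid cycle and holds no mitochondrially encoded subunit. Sdhb, its iron-sulfur subunit, had 143, 79.0, 102 and 120.3 CPM in WT 48 h livers and 205, 216, 183, 217 and 271 CPM in WT sham livers. No WT 48 h value reached the lowest WT sham value, and the log2 change was -1.0 (SE 0.20, edgeR adjusted p = 0.00237). The call held in all 37 fits without 1 library (adjusted p up to 0.0117) and in 8 of 9 other settings, and was lost with males alone (-0.84, adjusted p = 0.319; 2.81e-05 to 0.319 over the settings). Sdha, the flavoprotein that oxidises succinate, had 211, 196, 205 and 266 CPM in WT 48 h livers and 409, 311, 268, 234 and 469 CPM in WT sham livers, where the highest WT 48 h value lay inside the sham range (log2 change -0.63, SE 0.18, adjusted p = 0.0305; 0.00382 to 0.182 over the other settings). The Sdha call ended without WT sham replicate 1 (-0.59, adjusted p = 0.0711), 2 (-0.63, 0.0561) or 5 (-0.52, 0.0792) or WT 48 h replicate 1 (-0.57, 0.0855). The membrane anchors Sdhc (-0.47, adjusted p = 0.0976) and Sdhd (-0.27, adjusted p = 0.333) had changes in the same direction that did not pass in edgeR. DESeq2 called Sdhc but not Sdhd.

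Atp5c1, the gamma subunit that forms the rotor stalk of the ATP synthase, had 180.1, 124, 123 and 162 CPM in WT 48 h livers and 229, 225, 190.2, 225 and 299.7 CPM in WT sham livers. The ranges did not overlap (log2 change -0.69, SE 0.18, adjusted p = 0.0146; 0.00161 to 0.503 over the other settings), and the call ended without WT 48 h replicate 3 (-0.64, adjusted p = 0.0516). Atp5c1 was still called without both muscle libraries (-0.64, adjusted p = 0.046). Cox7a2l, which helps to join complexes III and IV into supercomplexes, had 66.1, 62.9, 64.9 and 71.0 CPM in WT 48 h livers and 88.9, 98.8, 102, 116 and 96.6 CPM in WT sham livers, and did not overlap either (log2 change -0.62, SE 0.20, adjusted p = 0.0488; 0.0164 to 0.707 over the other settings). The Cox7a2l call was lost in 15 of 37 fits without 1 library, with adjusted p up to 0.111, and without both muscle libraries (-0.65, adjusted p = 0.0779), where Uqcrc1 was called instead.

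Cox6b2, an isoform of complex IV best known from testis, was called higher at 48 h in both genotypes, at a low level. It had 0.78, 0.749, 2.79 and 0.654 CPM in KO 48 h livers and 0.104 to 0.269 CPM in KO sham livers, which did not overlap (log2 change 2.81, SE 0.63, adjusted p = 0.00841; 0.00018 to 0.0385 over the other settings). Without KO 48 h replicate 3 the change was 2.11 and the adjusted p 0.0891. In WT 48 h livers it had 0.49, 0.823, 0.0714 and 2.20 CPM, against 0.0493 to 0.339 CPM in WT sham livers (2.10, SE 0.63, adjusted p = 0.0339; 0.00645 to 0.223 over the other settings). The WT groups overlapped, and that call ended in 5 fits without 1 library: WT sham replicate 1 (1.74, adjusted p = 0.107), 3 (1.90, 0.0898) or 5 (1.97, 0.0722), and WT 48 h replicate 2 (1.97, 0.106) or 4 (1.304, 0.222). Genes called higher made up 2.3% of all in KO and 4.68% in WT livers at 48 h.

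In KO 48 h livers 85 of 92 nuclear and 13 of 13 mitochondrial genes had a log2 change below 0, with medians of -0.24 and -0.38; in males alone the nuclear median was -0.02. Besides Cox6b2, 2 assembly factors were called lower, in a comparison with 0.7% of all genes lower. Ndufaf1 had 13.2, 13.6, 13.5 and 11.3 CPM in KO 48 h livers, all below the KO sham values of 16.2 to 20.1 CPM (log2 change -0.54, SE 0.14, adjusted p = 0.0244). Ndufaf7, a methyltransferase that modifies a core subunit of complex I, had 6.21, 7.99, 5.75 and 6.10 CPM in KO 48 h livers, against 9.32 to 11.9 CPM in KO sham livers (-0.65, SE 0.18, adjusted p = 0.0468). The Ndufaf1 call was lost in 7 and the Ndufaf7 call in 23 of 37 fits without 1 library, with adjusted p up to 0.0854 and 0.156. Sdhb had 115, 144, 121 and 116 CPM in KO 48 h livers and 117 to 262 CPM in KO sham livers (-0.58, SE 0.20, adjusted p = 0.117). Neither the KO against WT comparison at 48 h (0.13, adjusted p = 0.859) nor the interaction (0.42, SE 0.27, adjusted p = 0.748) passed for Sdhb. The interaction at 48 h called 0% of all genes and no member by edgeR. Of the members 2 had an unadjusted p under 0.05, beside 1198 of all genes, and DESeq2 called 0 members and 53 genes.

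**Figure D4:**
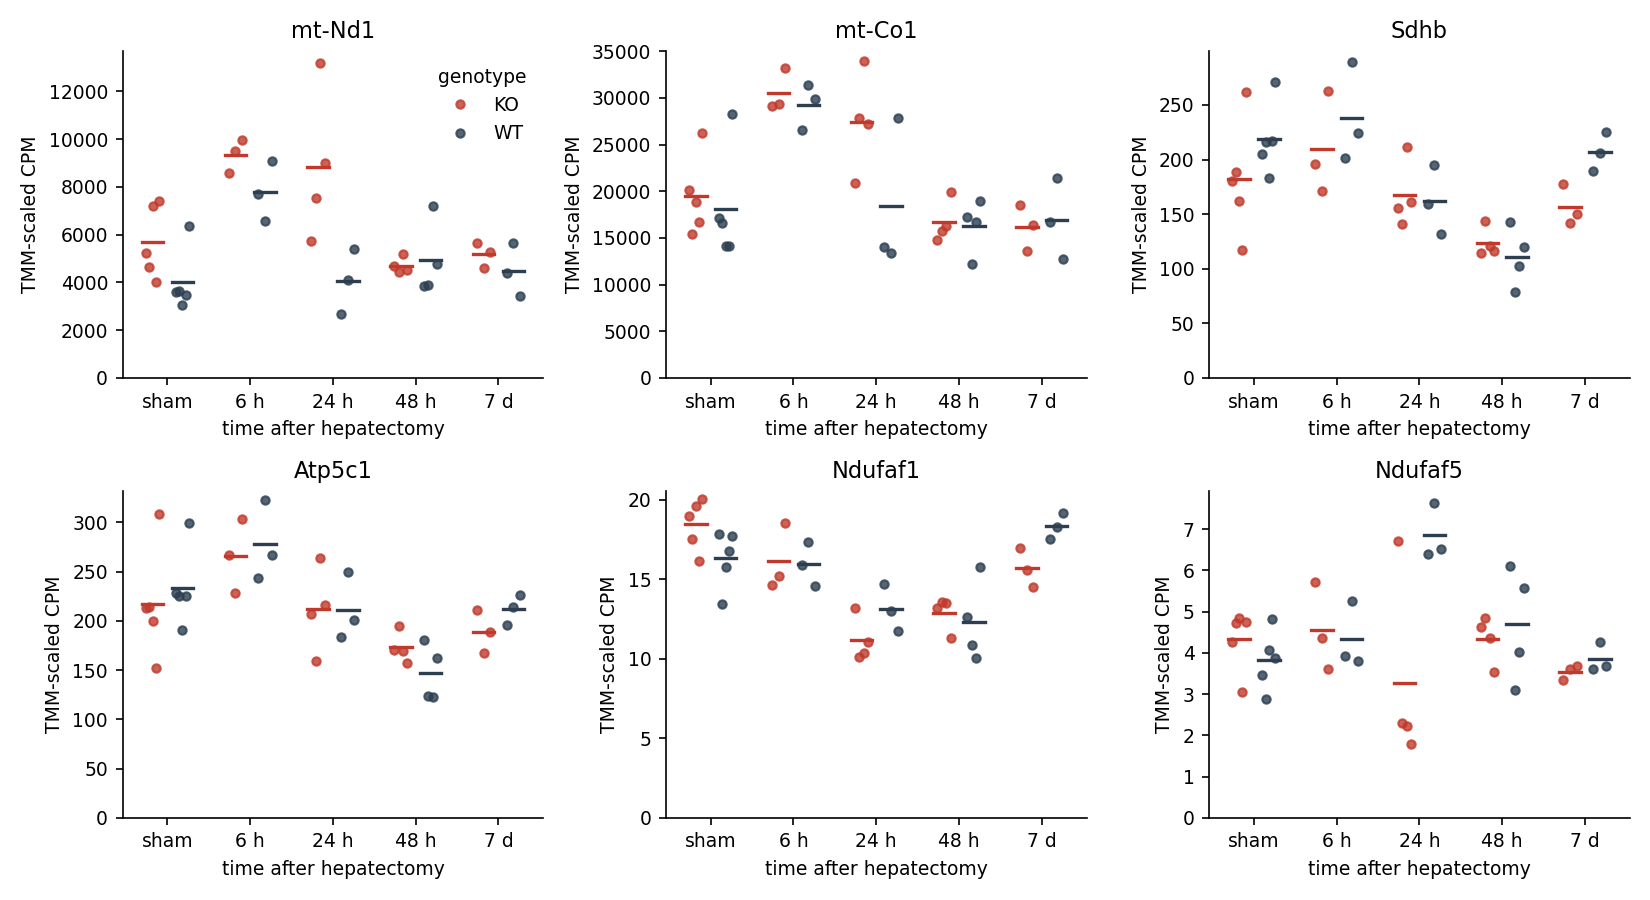
TMM-scaled CPM of 6 members by time after hepatectomy; each point is 1 library, bars are group means, KO left and WT right. Sdhb lay at 79.0 to 143 CPM in WT 48 h livers, against 183 to 271 CPM in WT sham livers, and Ndufaf5 lay at 1.80 to 6.71 CPM in KO and 6.39 to 7.64 CPM in WT livers at 24 h.

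Other genes of mitochondrial function were described at 48 h by their counts, beside 3.62% of all genes lower and 4.68% higher in WT 48 h livers. In WT 48 h livers 2 of 16 genes of the tricarboxylic acid cycle and pyruvate dehydrogenase were called lower (median -0.33), Idh3b by 0.69 (SE 0.14, adjusted p = 0.0034) and Suclg1 by 0.53 (SE 0.17, adjusted p = 0.041). Of 78 mitochondrial ribosomal protein genes 2 were called lower, with a median of -0.10, and of 39 OXPHOS assembly factors outside the name rule only Surf1 was (log2 change -0.77, SE 0.25, adjusted p = 0.045). Cycs, cytochrome c, which carries electrons from complex III to complex IV, rose (1.10, SE 0.26, adjusted p = 0.007). Of 18 biogenesis regulators 1 was lower, Ppargc1b (-1.58, SE 0.50, adjusted p = 0.045). Among markers of liver cells, 2 of 11 hepatocyte and 2 of 8 sinusoidal endothelial genes were called lower at this stage (list medians 0.05 and -0.97), as was 1 gene each of the T and NK cell (-1.79), B cell (-1.46), erythroid (-0.64) and Kupffer cell lists (-0.66), while 1 adipocyte gene (3.69) and 1 Kupffer cell gene were higher. The summed hepatocyte level was 122757 to 204055 CPM in WT 48 h livers and 125808 to 207740 CPM in WT sham livers. The part of cell makeup in the lower nuclear subunits was not tested.

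The promoters of Sdhb and Sdha are shown because these 2 subunits of 1 complex were both lower in WT 48 h livers. They are RefSeq windows on build GRCm38.p6, given 5′ to 3′ from 250 bases before to 30 bases after the annotated start, with matches to 4 motifs in capitals. The motifs, searched on both strands, were GCATGCGC (NRF1), CCGGAAG (ETS factors such as GABPA), AAGATGGCG (YY1) and TCAAGGTCA (ERR alpha).
Sdhb, chr4:140961021-140961300, plus strand: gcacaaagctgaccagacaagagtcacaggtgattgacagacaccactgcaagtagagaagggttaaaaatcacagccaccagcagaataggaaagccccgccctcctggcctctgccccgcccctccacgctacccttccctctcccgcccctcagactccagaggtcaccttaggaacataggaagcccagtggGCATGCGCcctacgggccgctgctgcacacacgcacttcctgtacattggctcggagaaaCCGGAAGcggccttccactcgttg
Sdha, chr13:74350211-74350490, minus strand: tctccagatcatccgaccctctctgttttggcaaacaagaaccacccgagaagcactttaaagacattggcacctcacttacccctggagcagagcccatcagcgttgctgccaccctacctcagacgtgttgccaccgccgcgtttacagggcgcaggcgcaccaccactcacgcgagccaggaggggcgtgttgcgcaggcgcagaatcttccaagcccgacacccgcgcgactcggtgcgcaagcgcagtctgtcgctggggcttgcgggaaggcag
The Sdhb window held GCATGCGC and CCGGAAG and the Sdha window held none of the 4. The windows of Atp5c1 and Cox7a2l, the other members called lower by edgeR in WT 48 h livers, held none of them either. Of 93 nuclear gene symbols, 75 had a window in the table, and of these 16% held GCATGCGC, 25.3% CCGGAAG, 10.7% AAGATGGCG and 2.67% TCAAGGTCA within 300 bases. Over all 27025 genes of the table the shares were 3.05%, 9.93%, 1.64% and 0.466%. Those genes were not filtered by type or by expression in liver, and were not matched in level to the members. A match is a run of letters and not a measured binding site.

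At 7 d no member was called in KO or WT livers, where 0% of all genes passed in either comparison. By edgeR 1 member in KO and 10 in WT livers had an unadjusted p under 0.05, beside 497 and 950 of all 15564 genes. DESeq2 called 0 members in both, and 6 genes in KO and 31 in WT livers. The nuclear median was -0.17 in KO and 0.07 in WT livers, and the mitochondrial median -0.21 in KO and 0.18 in WT livers. In males alone the mitochondrial median turned to -0.12 in WT livers, and both medians were -0.07 in KO livers. The interaction at 7 d called 0% of all genes and no member by edgeR. Of the members 3 had an unadjusted p under 0.05, beside 347 of all genes, and DESeq2 called 0 members and 3 genes.

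The genotypes were then compared at each stage, which asks whether loss of NOX4 changes the same genes. In sham livers no member was called by edgeR, beside 0.276% of all genes. An unadjusted p under 0.05 was found for 13 of the 105 tested members, beside 1999 of all 15564 genes. DESeq2 called 286 genes, with 4 members among them, which were mt-Atp8, mt-Co2, mt-Co3 and mt-Nd6. The 13 mitochondrial genes had a median log2 change of 0.54, KO over WT, with 12 above 0 (13 with the chromosome 1 rows added, where mt-Nd4l had 0.17 in place of -0.42), whereas the nuclear median was 0.01; in males alone the mitochondrial median was 0.16. mt-Atp8, an ATP synthase subunit, had 543, 315, 1036, 718 and 639.6 CPM in KO sham livers, against 120.4, 119, 119.7, 87.8 and 283 CPM in WT sham livers. mt-Nd6, a complex I subunit on the other strand of mitochondrial DNA than the rest, had 225, 355, 706, 227 and 392.3 CPM in KO and 125, 120.2, 146, 208 and 192 CPM in WT sham livers. Neither pair of groups overlapped, with log2 changes of 2.15 (SE 0.57, edgeR adjusted p = 0.0903) for mt-Atp8 and 1.27 (SE 0.33, adjusted p = 0.084) for mt-Nd6.

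The abundant mitochondrial genes differed less between sham livers. mt-Co1 had a log2 change of 0.07 (SE 0.20, adjusted p = 0.935), mt-Cytb of 0.20 (SE 0.22, adjusted p = 0.75) and mt-Nd4 of 0.43 (SE 0.23, adjusted p = 0.42). The rows of mt-Co2 and mt-Co3 had changes of 1.12 (SE 0.29, adjusted p = 0.084) and 1.72 (SE 0.52, adjusted p = 0.133), and with their chromosome 1 rows added these became 0.50 (adjusted p = 0.311) and 0.72 (adjusted p = 0.207). mt-Nd3 was 0.54 (adjusted p = 0.402) alone and 1.20 (adjusted p = 0.0915) as a pair. The mitochondrial ribosomal RNAs mt-Rnr1 and mt-Rnr2, which are not members, took 0.310% to 0.753% of counts in KO sham livers and 0.149% to 0.201% in WT sham livers. The part of RNA quality or poly(A) selection in these differences was not tested.

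At 24 h more genes were called between genotypes than at any other stage, with 11.1% of all genes called higher and 7.5% lower in KO livers. All 13 mitochondrial genes had a log2 change above 0, with a median of 0.64, beside 0.07 for the nuclear genes and -0.03 for all genes. The 24 h interaction called no mitochondrial gene by edgeR. Its mitochondrial median was -0.15, with 6 of 13 above 0, and 0.20, with 7 above 0, when the chromosome 1 rows were added. That median was 0.46 without both muscle libraries and 0.51 in males alone. Against sham livers the mitochondrial median was 0.14 in KO and 0.002 in WT 24 h livers, and 0.08 and -0.38 without both muscle libraries. mt-Nd1 had 5716, 7518, 13177 and 9002 CPM in KO 24 h livers and 2666, 4086 and 5388 CPM in WT 24 h livers, without overlap (log2 change 1.14, SE 0.30, adjusted p = 0.0108; 0.00153 to 0.295 over the other settings). That call ended without WT 24 h replicate 1 (0.90, adjusted p = 0.0691) or KO 24 h replicate 3 (0.90, adjusted p = 0.06). mt-Nd4, another core subunit of complex I, had 4860.2, 6878, 10457 and 7863 CPM in KO and 3373, 3636 and 5922 CPM in WT 24 h livers, which overlapped (0.84, SE 0.28, adjusted p = 0.0351; call lost in 15 of 37 fits without 1 library, adjusted p up to 0.153). mt-Co1 had 20880.2, 27804, 33951 and 27180.4 CPM in KO and 14011, 13344 and 27822 CPM in WT 24 h livers (0.64, SE 0.25, adjusted p = 0.0707). The highest WT value belongs to WT 24 h replicate 3. Without it and WT 48 h replicate 3 the mitochondrial median was 0.99 and 6 of the 13 were called higher, mt-Atp8, mt-Co1, mt-Co3, mt-Nd1, mt-Nd4 and mt-Nd6. That fit keeps only replicates 1 and 2 of the WT 24 h group. Their mitochondrial shares were 3.02% and 3.54%, against 7.60% in the replicate left out. The share of all genes called in that fit is not given here. The mt-Co3 call rests on the single row. With its chromosome 1 row added its change over all libraries was 0.49 (adjusted p = 0.267). With the compared groups fitted alone no member was called.

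Of the 9 assembly or supercomplex factors, 2 that build complex I were called lower in KO than in WT 24 h livers, Ndufaf5 and Ndufaf6. Ndufaf5, which hydroxylates a core subunit during assembly, had 6.71, 2.30, 2.22 and 1.80 CPM in KO 24 h livers and 6.39, 7.64 and 6.51 CPM in WT 24 h livers. KO replicate 1 lay within the WT range and the other KO libraries far below it (log2 change -1.09, SE 0.31, adjusted p = 0.0179; 0.00433 to 0.299 over the other settings). The interaction at 24 h, where 2.96% of all genes were called lower, was -1.28 (SE 0.41, adjusted p = 0.0489) for Ndufaf5, and was lost in 29 of 37 fits without 1 library (adjusted p up to 0.117). The KO against WT call of Ndufaf5 ended without WT 24 h replicate 2 (-1.09, adjusted p = 0.0559) or KO 24 h replicate 2 (-0.94, 0.0637), 3 (-0.93, 0.0762) or 4 (-0.89, 0.0802). Ndufaf6, an assembly factor of the early complex I intermediate, had 8.47, 3.75, 6.44 and 6.27 CPM in KO and 9.51, 10.8 and 12.6 CPM in WT 24 h livers, which did not overlap (-0.80, SE 0.27, adjusted p = 0.0406; lost in 6 of 37 fits without 1 library, adjusted p up to 0.147). Ndufa4l2 was lower as well (-1.39, SE 0.49, adjusted p = 0.0464; lost in 19 of 37 fits without 1 library, adjusted p up to 0.21). Its values overlapped, at 0.207 to 1.301 CPM in KO and 0.806 to 2.11 CPM in WT 24 h livers, and the log2 change ran from -2.29 to -0.98 without 1 library. Without both muscle libraries it was -1.53 (adjusted p = 0.0533), and the interaction of Ndufaf5 was -1.37 (adjusted p = 0.097).

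Cox7a2l was the only nuclear member called higher in KO 24 h livers, with 70.2, 116, 174 and 131 CPM, against 92.0, 63.8 and 75.2 CPM in WT 24 h livers (log2 change 0.70, SE 0.23, adjusted p = 0.0331). The groups overlapped, and the Cox7a2l call was lost in 19 of 37 fits without 1 library, with adjusted p up to 0.186, and without both muscle libraries (0.57, adjusted p = 0.127). For the lists that follow, 11.1% of all genes were called higher and 7.5% lower in this comparison. Around the members, 6 of 39 assembly factors outside the name rule were called lower in KO than in WT livers and 1 higher (median -0.36), among them Timmdc1 (-1.12, SE 0.31, adjusted p = 0.015) and Surf1 (-0.92, SE 0.28, adjusted p = 0.021). Of 18 genes of mitochondrial RNA processing 4 were higher and none lower (median 0.14), led by Mtpap, the mitochondrial poly(A) polymerase (1.48, SE 0.29, adjusted p = 0.002), and Tbrg4 (1.12, SE 0.26, adjusted p = 0.005). Of 18 biogenesis regulators 4 were higher and 2 lower, with Nrf1 at 0.73 (SE 0.21, adjusted p = 0.019) and Polg2 at -1.72 (SE 0.46, adjusted p = 0.012). Tfam and Lrpprc, which bind mitochondrial DNA and RNA, had log2 changes of 0.25 (SE 0.30, adjusted p = 0.589) and 0.03 (SE 0.26, adjusted p = 0.958). Of 78 mitochondrial ribosomal protein genes 5 were higher and 4 lower.

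Of 8 sinusoidal endothelial genes 6 were called lower in KO 24 h livers, where 7.5% of all genes were lower and 11.1% higher. Their summed level was 59.0 to 82.1 CPM in KO and 94.9 to 200.4 CPM in WT 24 h livers. Of 10 Kupffer cell genes 3 were lower, at 132 to 420 CPM in KO and 305 to 603 CPM in WT livers, and 2 of 11 hepatocyte genes were higher, at 150245 to 226341 CPM in KO and 79616 to 134382 CPM in WT livers. Every marker of these 3 lists had counts, and their part in the OXPHOS differences was not tested.

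The muscle isoforms of complex IV were highest in the library with the most skeletal muscle transcripts. Cox7a1 and Cox6a2, the heart and skeletal muscle forms, were called lower in KO 24 h livers. Cox6a2 had 0, 0, 0.666 and 0.0418 CPM in KO 24 h livers and 0, 0.0834 and 22.6 CPM in WT 24 h livers, and Cox7a1 had 0.773, 0.207, 0.40 and 0.753 CPM in KO and 0.528, 2.36 and 10.5 CPM in WT 24 h livers. Both maxima belong to WT 24 h replicate 3, where Ckm, the muscle creatine kinase, stood at 305 CPM. The log2 changes were -5.99 (SE 1.86, adjusted p = 0.0252) for Cox6a2 and -3.25 (SE 0.67, adjusted p = 0.00285) for Cox7a1. Without that library Cox6a2 turned to 2.93 (adjusted p = 0.391) and Cox7a1 was -1.43 (adjusted p = 0.0831), and over the other settings their adjusted p ran from 1.16e-19 to 0.382 and from 5.7e-08 to 0.276. The Cox6a2 call also ended without KO 24 h replicate 2 (-5.54, adjusted p = 0.0682) or 4 (-5.45, 0.0913). The interaction of Cox7a1 at 24 h was -3.21 (SE 0.87, adjusted p = 0.024) and -1.48 (adjusted p = 0.233) without WT 24 h replicate 3; it also missed the threshold without KO 24 h replicate 2 (-2.89, 0.0578) or 3 (-3.14, 0.0543), and ran from 0.000105 to 0.189 over the other settings.

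Cox7a1 did not follow Ckm at lower levels: it had 2.36 CPM in WT 24 h replicate 2 and at least 1.34 CPM in each KO 6 h liver, where Ckm was at 0. The next highest Cox6a2 values, 8.37 CPM in WT 48 h replicate 3 and 3.44 CPM in WT sham replicate 2, were in the libraries with the next highest Ckm, 109 and 22.2 CPM. Cox8b, a muscle and brown fat form, had 12.8 CPM in WT 24 h replicate 3, where the brown fat gene Ucp1 stood at 7.51 CPM beside the high Ckm. It was above 1 CPM in 6 further libraries. In 4 of these 6 (KO 6 h replicate 2, KO 48 h replicate 2, KO 7 d replicate 2 and WT 48 h replicate 2) Ucp1 stood at 4.56 to 13.8 CPM. In WT sham replicate 2 and WT 48 h replicate 3 Ucp1 was at most 0.04 CPM while Ckm was high. The liver forms Cox6a1, Cox7a2 and Cox8a did not pass the KO against WT test at 24 h (log2 changes 0.24, -0.08 and 0.32, adjusted p = 0.571, 0.862 and 0.387).

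**Figure D5:**
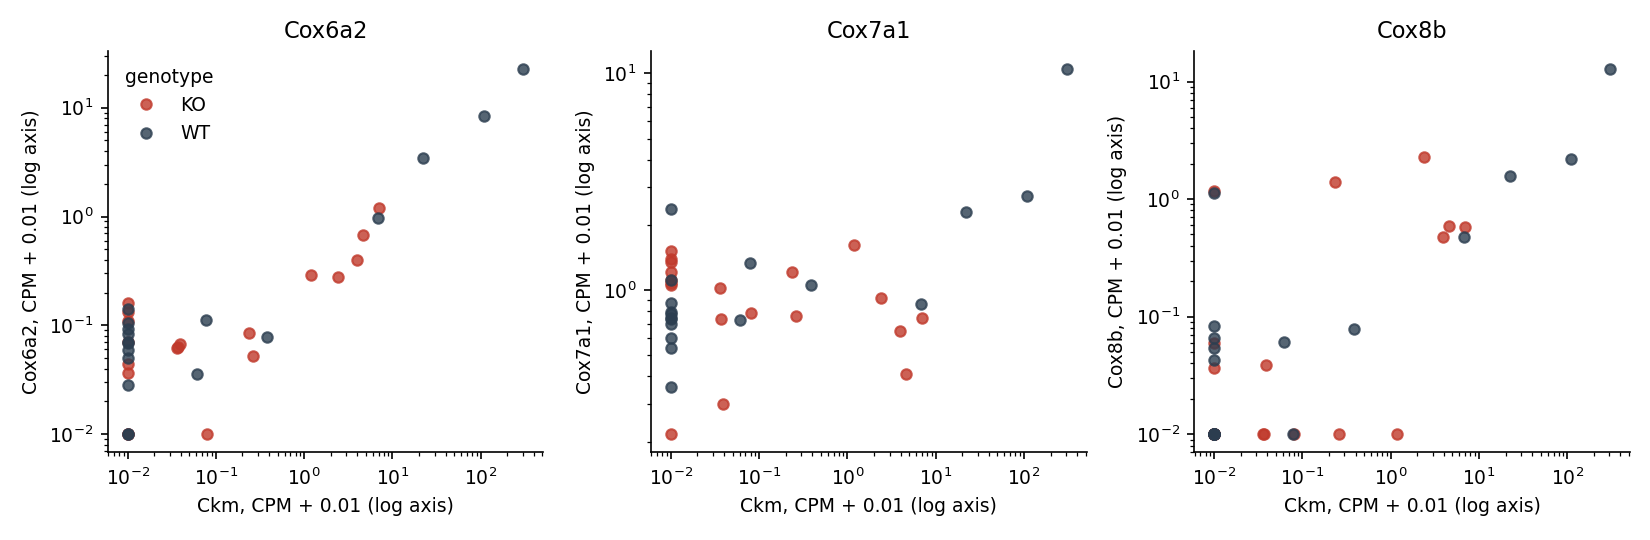
TMM-scaled CPM of Cox6a2, Cox7a1 and Cox8b (vertical, log axes) against Ckm (horizontal, log axes), with 0.01 added to each value; each point is 1 library. WT 24 h replicate 3 lies at the upper right in each panel, with Ckm at 305 CPM and Cox6a2 at 22.6 CPM.

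At 6 h, 48 h and 7 d no member was called between the genotypes by edgeR. At 6 h 0.116% of all genes were called, and 1 member and 1648 of all genes had an unadjusted p under 0.05. DESeq2 called 0 members and 125 genes there. At 48 h 0.341% of all genes were called, with 1 member and 1752 genes under 0.05, and DESeq2 called 0 members and 224 genes. At 7 d 0.045% were called, with 0 members and 203 genes under 0.05, and DESeq2 called 0 members and 28 genes. The mitochondrial medians, KO over WT, were 0.24 at 6 h, 0.04 at 48 h and 0.13 at 7 d, and the nuclear medians 0.01, 0.11 and -0.22. No member was called between males and females, where 3.59% of all genes were called. Of the members 5 had an unadjusted p under 0.05, beside 2341 of all 15564 genes, and DESeq2 called 0 members and 853 genes. The smallest p among members was that of mt-Nd4l (log2 change 0.38, male over female, SE 0.13, adjusted p = 0.104). With its chromosome 1 row added the change was 0.41 (SE 0.16, adjusted p = 0.171).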

How the data were processed

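The deposited table held 1 estimated count per gene and library, as whole numbers from the authors; the submitters' processing notes name STAR 2.5.3a, RSEM 1.3.0 and GRCm38, and their roles and the annotation release are not given in the sources used here. Per the labels' protocols, libraries were made from frozen liver RNA with a stranded mRNA kit. Gene IDs were matched to GENCODE M21 (54435 of 55487). Counts were filtered for low values, scaled by TMM and tested in edgeR 4.0.16 (R 4.3.3) by the quasi-likelihood test, in 1 fit of all 37 libraries with 10 groups and sex, and p-values were Benjamini-Hochberg adjusted over 15564 genes at 0.05. The model was checked on simulated data. DESeq2 1.42.0 and other scalings, filters and library sets were alternatives. The genes and lists were chosen with earlier results of these data known. The rule named the mitochondrial genes, the most abundant nuclear gene of each complex, up to 3 called members per direction and comparison with the smallest p, and isoform pairs; other members were named after their values were seen. Chromosome 1 rows and muscle libraries were examined as alternatives chosen after seeing the data. No intervals or floors are given; counts are not independent molecules.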

Additional observations from a re-analysis of the deposited data

Results flagged for a closer look

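Members and shares were checked in the groups of 4 or 5 libraries only (190 checks, 35 members). In 22 of the checks (11.6%) 1 library lay far from the rest. The nominal rate of the rule is about 1 in 20 groups, and the chance rate in these data was not measured. The WT sham liver taken at 6 h, replicate 5, stood above the other WT sham livers in 5 mitochondrial genes: mt-Co1 had 28259.8 CPM there and 14082 to 17168 CPM in the others, mt-Cytb 12663 against 5719 to 6691, mt-Nd4 8804 against 3952 to 4655, mt-Nd1 6355 against 3047 to 3623, and mt-Atp8 283 against 87.8 to 120.4. mt-Nd2 in WT 48 h replicate 4 had 4652.5 CPM, against 2952 to 3219 in the other libraries of its group.

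In KO 24 h replicate 1 Ndufaf5 had 6.71 CPM against 1.80 to 2.30 in the others, Ndufa4l2 had 1.301 against 0.207 to 0.355, and the log2 ratio of mitochondrial to nuclear counts was 1.89 against 2.56 to 2.67. The mitochondrial share in KO 48 h replicate 4 was 6.30%, against 4.54% to 4.73%, and Ndufaf1 there had 11.3 CPM against 13.2 to 13.6. In KO 48 h replicate 3 Cox6b2 had 2.79 CPM against 0.654 to 0.780 and Ndufa4 had 258 against 164 to 173. WT 48 h replicate 1 had 285 CPM of Cox6a1 against 156 to 163, and 329.9 CPM of Uqcrq against 173 to 195. Ndufaf7 in KO sham replicate 2 had 11.9 CPM against 9.32 to 10.005.

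Cox6a2 stood apart in 4 libraries, at 0.666 CPM in KO 24 h replicate 3, 1.20 in KO 48 h replicate 4, 3.44 in WT sham replicate 2 and 8.37 in WT 48 h replicate 3. Cox8b did so at 0.464 CPM in KO sham replicate 4 and 0.577 CPM in KO 24 h replicate 3. The interaction at 24 h, adjusted over all genes in edgeR, was called for Cox7a1 (-3.21) and Ndufaf5 (-1.28), and neither call was stable. Without WT 24 h replicate 3, the library with the most muscle transcripts, Cox7a1 was at -1.48 (adjusted p = 0.233). The Ndufaf5 call was lost in 29 of 37 fits without 1 library.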

How the results depend on the processing

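No paired analysis was possible because replicate numbers were given in accession order only. The number of members called in KO livers at 24 h was 2, and it was 4 with DESeq2 (2 of them mitochondrial genes that were higher), 4 in males alone, 0 with the compared groups alone and 5 without the muscle libraries (1 to 10 without 1 library). For KO at 48 h it was 3, and 1 in males alone or with the groups alone (0 to 4). For WT at 6 h it was 1, and 0 with RLE scaling, with nuclear genes only for scaling, in males or with the groups alone, and 4 without the count filter (0 to 7). For WT at 24 h it was 0, and 1 with DESeq2 and 4 without the filter (0 to 2). For WT at 48 h it was 5, and 12 with DESeq2, 3 without the filter or without sex, 0 in males and 1 with the groups alone (3 to 11). For KO against WT in sham livers it was 0, and 4 with DESeq2, without the filter or without the muscle libraries, and 1 with the groups alone (0 to 4). At 24 h it was 8, and 5 in males and 0 with the groups alone (2 to 15). The 24 h interaction count was 2, and 1 with RLE scaling, nuclear genes for scaling or no sex term, 4 without the filter, and 0 with the groups alone or without the muscle libraries (0 to 5). Between the sexes it was 0, and 1 without the muscle libraries (0 to 2). Without the filter the count was 5 for WT at 7 d and 1 for KO at 6 h, for KO against WT at 6 h, 48 h and 7 d, and for the interactions at 6 h, 48 h and 7 d; leaving out 1 library gave 0 in each of these.

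Cox6a2 at 24 h, KO against WT, was -5.99, and 2.93 without WT 24 h replicate 3 and 2.44 without both muscle libraries (-10.9 to 2.93 without 1 library). Of 21 calls of named members, 21 held with DESeq2, 17 with RLE scaling, 10 in males alone and 2 with the compared groups alone. With chromosome 1 rows the mitochondrial share was 8.07%, 9.18%, 8.36%, 7.87% and 7.79% in KO livers (sham, 6 h, 24 h, 48 h, 7 d) and 5.72%, 7.12%, 6.96% and 7.44% in WT livers (sham, 6 h, 48 h, 7 d). The log2 ratio became 2.87, 3.12, 2.997, 2.78 and 2.78 in KO and 2.36, 2.94, 2.81 and 2.51 in WT. Over protein-coding counts the mitochondrial share was 6.60% in KO 6 h, 5.33% in KO 7 d and 5.69% in WT 6 h livers, and the nuclear share 1.24% in KO 7 d, 1.23% in WT sham, 1.10% in WT 6 h and 1.09% in WT 48 h livers. The cause of these shifts was not tested.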
